A study of Mus musculus with 6 samples.

Results

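The genes described here are 39 type I interferon-stimulated genes, and 38 of them were found by symbol among the 31053 genes of the expression matrices. Mx2 was not analysed here. The genes were followed in 6 single-cell RNA libraries from Yumm5.2 melanomas, a mouse melanoma line grown in the flank of C57BL/6 mice from 350000 implanted cells. All tumour cells carried a hairpin against Cdkn2a, the gene of the p16 cell-cycle inhibitor, in the controls as well. The control line carried a control hairpin in addition, and the other lines carried hairpin 1 or hairpin 2 against Slc39a9, which encodes the zinc transporter ZIP9. Mice of each line received 200 µg of anti-PD1, an antibody against the T cell checkpoint receptor PD-1, or isotype IgG on 3 days of each week until the tumour measured 0.5 cm3. Each combination of line and antibody is 1 library, so a line has n = 2 libraries, and a difference between lines cannot be told apart from a difference between the tumours or captures of those libraries. The number of tumours behind a library is not given in the sources used here.

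Type I interferons, the interferon-alpha and interferon-beta proteins, are released by cells that sense foreign or misplaced nucleic acid. They bind the receptor pair IFNAR1 and IFNAR2 and, through the kinases JAK1 and TYK2, assemble the factor ISGF3, which contains STAT2 and IRF9. ISGF3 binds a DNA element named the interferon-stimulated response element (ISRE) and switches on a large set of genes together. The members studied here include RNA-binding antiviral proteins (the IFIT family), enzymes that act on nucleic acids or nucleotides (the OAS family, RSAD2, SAMHD1), the ubiquitin-like protein ISG15 with its deconjugating enzyme USP18, cytosolic RNA and DNA sensors, and the factors IRF7, IRF9 and STAT2. In tumours, interferon signalling is known both for antigen presentation by cancer cells and for the activation of myeloid cells.

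Promoters of members that hold the core of the ISRE are shown before the expression values, so that the element can be read. RefSeq promoter windows of 300 bases, 250 before to 50 after the start of the gene (build GRCm38.p6), were matched by symbol for 28 of the 38 members. The core of the ISRE, GAAA followed by any 2 bases and a further GAAA, was searched on both strands with overlapping matches counted. It was present in 14 of the 28 windows (50.0%) and in 1079 of all 27025 genes with a window (3.99%). At least 2 matches occurred in 6 members and in 0.266% of all genes. A match describes the letters only. The stretches below are 60 bases long and written 5′ to 3′ along the strand of the gene, and capitals mark every base inside a match to the ISRE core on either strand.
Isg15, chr4:156200845-156200904, minus strand: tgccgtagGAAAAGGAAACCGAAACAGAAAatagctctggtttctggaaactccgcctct
Ifit1, chr19:34640784-34640843, plus strand: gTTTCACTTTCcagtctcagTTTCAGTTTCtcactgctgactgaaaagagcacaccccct
Ifit3, chr19:34583387-34583446, plus strand: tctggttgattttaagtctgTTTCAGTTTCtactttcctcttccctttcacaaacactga
Ifit3b, chr19:34607783-34607842, plus strand: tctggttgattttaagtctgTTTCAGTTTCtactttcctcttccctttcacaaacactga
Rsad2, chr12:26456533-26456592, minus strand: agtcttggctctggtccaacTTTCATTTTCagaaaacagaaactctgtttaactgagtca
Stat2, chr10:128270256-128270315, plus strand: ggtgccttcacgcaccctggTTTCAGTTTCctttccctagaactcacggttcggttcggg
Bst2, chr8:71537557-71537616, minus strand: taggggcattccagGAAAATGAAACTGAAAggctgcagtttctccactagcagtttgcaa
Isg15 carried 3 overlapping matches, the nearest of them beginning 66 bases before the start of the gene. The printed stretches of Ifit3 and Ifit3b are identical letter for letter. These 2 genes are near-identical copies, so the division of reads between them is uncertain.

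Several members are neighbours on the chromosome. In the mm10 build with the GENCODE M21 annotation, Ifit2, Ifit3, Ifit3b and Ifit1 lie in 1 cluster between positions 34550694 and 34650009 of chromosome 19. Oasl2, Oasl1, Oas2, Oas3 and Oas1a lie on chromosome 5. Dtx3l (35926511 to 35939151, minus strand) and Parp9 (35938470 to 35972605, plus strand) overlap at their 5′ ends on chromosome 16, beside Parp14, and their proteins form a complex. No strand setting of the counting is given in the sources used here, so reads from the overlap could have been assigned to either gene. The multicopy Oas, Slfn, Trim30 and Ifi200 families carry the same uncertainty about near-identical copies.

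The libraries held 58859821 to 83204249 unique molecular identifiers (UMIs), and 43260 cells were kept. Cells were gated on a few genes rather than clustered. The tumour gate (Tyrobp of at most 1 UMI, no Ptprc, at least 5 UMIs of Spp1, Grem1 and Cdkn2a together) held 24476 cells, the macrophage gate (at least 3 UMIs of C1qa, C1qb and C1qc) 9683, the neutrophil gate (at least 3 UMIs of S100a8 and S100a9, C1q of at most 1) 1006, and the endothelial gate (at least 3 UMIs of Pecam1, Cdh5, Kdr and Egfl7, no Ptprc, C1q of at most 1) 334. Summed macrophage markers stood at 26.4 to 43.2 CPM (counts scaled to a sum of 1000000 UMIs per library and gate) in the tumour gate and at 18990 to 21707 CPM in the macrophage gate. The summed pigment-cell markers stood at only 75.4 to 101 CPM in the tumour gate and at 120 to 144 CPM in macrophages, so they do not mark the tumour gate. A Y-linked UMI was seen in 2.82% of tumour-gate cells and in 56.4% of macrophages, and an Xist UMI in 31.4% and 1.71%. The neutrophil gate was mixed: its tumour-gate genes summed to 2086 to 11466 CPM, against 6410 to 9931 CPM in the tumour gate itself. Pairs of libraries shared 3755 to 6724 barcode sequences, 61.8 to 88.1% of the smaller library. The log UMI counts of shared barcodes correlated between libraries at 0.941 to 0.984. Shared barcodes were in the same class in 53.4 to 62.8% of cases, against 53.8 to 62.2% computed from the class shares at like UMI counts. Why the barcode sequences and their UMI counts match was not tested. In the tumour gate Slc39a9 stood at 22.9 and 20.7 CPM in the control IgG and anti-PD1 libraries, 8.10 and 8.37 with hairpin 1, and 12.1 and 11.2 with hairpin 2, so both knockdown labels held. In macrophages, which come from the host, it stood at 21.5 to 25.9 CPM.

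Interferon-stimulated genes made up a larger part of the RNA of host cells than of tumour cells in these libraries. Member UMIs summed to 535 to 935 CPM in the tumour gate and to 2050 to 3391 CPM in macrophages, without overlap. In a comparison of gates within libraries (24 sums, library as a block, edgeR's quasi-likelihood test with Benjamini-Hochberg adjustment over all genes), 34 of 38 members were called higher in macrophages than in tumour cells, with a median log2 difference of 2.07. Of all genes tested 78.4% were called in that comparison, 38.3% higher and 40.1% lower, so a call here is common. Neutrophils had 35 of 38 members higher than tumour cells (all genes 43%, 23.1% higher and 19.9% lower) and endothelium 29 of 38 (all genes 54.2%, 23.7% higher and 30.5% lower). Slfn5, a member of the Schlafen family, was 7.08 higher in macrophages than in tumour cells on the log2 scale, Rsad2, the antiviral enzyme viperin, 4.48 and Irf7, which amplifies interferon production, 4.09. Isg15 and Bst2 (tetherin, which holds budding virus at the membrane) were nearer to the tumour cells, at 1.60 and 2.02. Xaf1, Isg20, Ddx58 and Ifi44 were not called higher in macrophages.

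**Figure D1:**
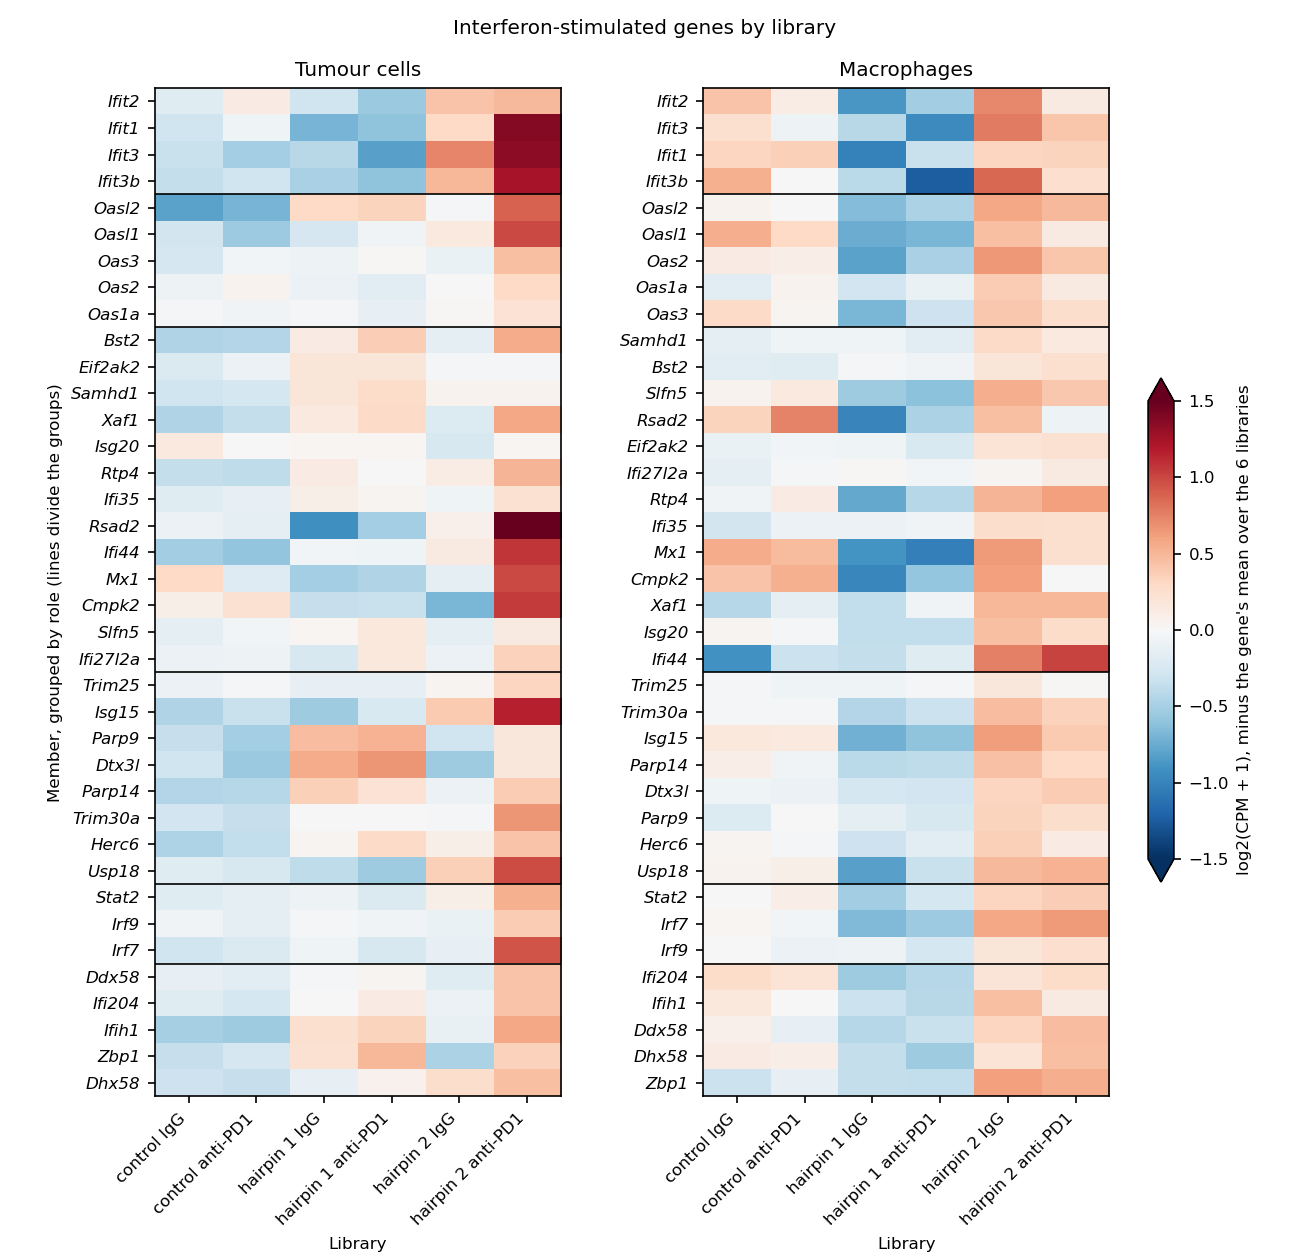
Level of each of the 38 members in the 6 libraries, in the tumour gate and in macrophages, as log2(CPM + 1) minus the mean of the gene over the 6 libraries (colour), with members grouped by role. In macrophages most rows are lowest in a hairpin 1 library and highest in a hairpin 2 library, while in the tumour gate most rows are highest in the hairpin 2 anti-PD1 library and the hairpin 1 columns are high for Parp9 and Dtx3l and low for the IFIT genes.

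The main question put to the tumour cells was how the members differ between the 2 hairpins and the control. The IFIT genes, Isg15, Usp18 and Rsad2 were highest with hairpin 2, whereas Parp9 and Dtx3l were highest with hairpin 1. Member UMIs summed to 535 (IgG) and 548 CPM (anti-PD1) in the control line, 655 and 680 with hairpin 1, and 655 and 935 with hairpin 2. Of the 37 members that passed the filter on low counts, 11 were called higher and 2 lower with hairpin 2 than with hairpin 1 (adjusted p below 0.05), with a median log2 difference of 0.34 over the 37. Of all genes tested 16.1% were called higher and 14.8% lower in that comparison (30.9% in all), with a median of 0.00. Against control, hairpin 1 had 11 members higher and 1 lower (median 0.20), where 42.2% of all genes were called, 21.1% in each direction. Hairpin 2 had 14 members higher than control and 0 lower (median 0.61), and 36 of 37 differences were positive, where 15.3% of all genes were called, 7.71% higher and 7.55% lower. At an unadjusted p below 0.05, 18 of 37 members differed between the 2 hairpins, as did 6674 of all 15568 genes tested, a similar share. In CPM, 14 members had both hairpin 2 libraries above both hairpin 1 libraries and 5 had both below, against 29.4% and 37.3% of all genes. Both hairpin 2 libraries lay above both control libraries for 26 members and below for 0, against 40.7% and 23.6% of all genes, and both hairpin 1 libraries above control for 20 and below for 9, against 46.6% and 28.3%. The 3 comparisons share libraries pairwise, so their counts are given side by side and are not independent of each other.

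Among the RNA-binding IFIT proteins, which recognise foreign RNA ends, all 4 genes rose with hairpin 2 relative to hairpin 1. Ifit3 stood at 8.88 and 7.70 CPM in the control IgG and anti-PD1 libraries, 8.33 and 6.03 with hairpin 1, and 19.7 and 30.4 with hairpin 2. Both hairpin 2 values lay above all 4 others, and the log2 difference from hairpin 1 was 1.82 ± 0.24 (SE; adjusted p = 0.00231) and from control 1.53 ± 0.23 (adjusted p = 0.0104). Ifit1 stood at 8.58 and 10.3 CPM in control, 6.29 and 6.77 with hairpin 1, and 13.5 and 29.6 with hairpin 2. Its 3 lines did not overlap, and hairpin 2 exceeded hairpin 1 by 1.67 ± 0.24 (adjusted p = 0.00292) and control by 1.07 ± 0.23 (adjusted p = 0.0255). Ifit2 stood at 29.5 and 36.5 CPM in control, 27.0 and 22.5 with hairpin 1, and 45.3 and 47.2 with hairpin 2. Ifit2 was the 1 member called lower with hairpin 1 than in control, by a log2 difference of -0.50 ± 0.12 (adjusted p = 0.0171), and its rise with hairpin 2 over hairpin 1 was 0.93 ± 0.12 (adjusted p = 0.00227).

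Isg15, Usp18 and Rsad2 were likewise highest with hairpin 2, most of all in its anti-PD1 library. Isg15, which is attached to proteins during an interferon response, stood at 24.6 and 26.8 CPM in control, 23.3 and 28.8 with hairpin 1, and 45.2 and 77.5 with hairpin 2. Control and hairpin 1 overlapped, and hairpin 2 exceeded hairpin 1 by 1.24 ± 0.14 (adjusted p = 0.00139). Usp18, which removes ISG15 and dampens the receptor, stood at 4.38 and 4.17 CPM in control, 3.69 and 3.23 with hairpin 1, and 6.83 and 11.0 with hairpin 2, a difference between the hairpins of 1.37 ± 0.22 (adjusted p = 0.00457). Rsad2 stood at 5.09 and 4.88 CPM in control, 2.41 and 3.51 with hairpin 1, and 5.80 and 18.2 with hairpin 2. Its difference between the hairpins was 1.94 ± 0.37 (adjusted p = 0.00864), and its differences from control did not pass (hairpin 1: -0.90, adjusted p = 0.101; hairpin 2: 1.04, adjusted p = 0.0891). Most of the Rsad2 rise lay in the anti-PD1 library of hairpin 2.

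Stat2, a subunit of ISGF3, stood at 36.5 and 37.8 CPM in control, 39.5 and 35.7 with hairpin 1, and 44.6 and 60.8 with hairpin 2, a difference of 0.51 ± 0.13 between the hairpins (adjusted p = 0.0253). Trim25, a ubiquitin ligase of the RIG-I pathway, was 0.34 ± 0.08 higher (adjusted p = 0.0191), with 46.6 and 46.4 CPM in hairpin 1 and 52.0 and 63.7 in hairpin 2. Irf7 stood at 2.78, 3.00, 3.45, 2.96 and 3.30 CPM in the first 5 libraries and at 7.97 CPM with hairpin 2 and anti-PD1, and its difference between the hairpins did not pass (0.76 ± 0.33, adjusted p = 0.125). A single library was thus high for Irf7.

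With hairpin 1, 11 of 37 members were called higher than in control, where 21.1% of all genes were called higher. In either direction 42.2% of all genes were called, so a call in this comparison is common. Parp9, an ADP-ribosylation cofactor, stood at 11.0 and 9.66 CPM in control, 19.9 and 20.8 with hairpin 1, and 11.3 and 16.1 with hairpin 2. Dtx3l, its ubiquitin ligase partner, followed the same order, with 9.98 and 8.17, 18.9 and 20.4, and 8.37 and 14.3 CPM. Both rose with hairpin 1 (Parp9 by 0.89 ± 0.15, adjusted p = 0.00411; Dtx3l by 1.02 ± 0.22, adjusted p = 0.00925), and these were the 2 members called lower with hairpin 2 than with hairpin 1 (log2 differences -0.55 ± 0.15, adjusted p = 0.0327, and -0.78 ± 0.21, adjusted p = 0.0315). Ifih1, which encodes the double-stranded RNA sensor MDA5, stood at 9.07 and 8.84 CPM in control, 15.8 and 17.0 with hairpin 1, and 12.3 and 20.3 with hairpin 2. It rose by 0.78 ± 0.18 in each hairpin line (adjusted p = 0.0119 with hairpin 1 and 0.0305 with hairpin 2). Oasl2, an OAS-like protein, stood at 3.08 and 3.38 CPM in control, 7.69 and 7.94 with hairpin 1, and 5.99 and 12.1 with hairpin 2, rising by 1.20 ± 0.24 (adjusted p = 0.00776) and 1.38 ± 0.24 (adjusted p = 0.0148).

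Other members above control in both hairpin lines were Bst2, Herc6 and Samhd1. Bst2 stood at 47.8 and 48.3 CPM in control, 71.9 and 85.1 with hairpin 1, and 59.4 and 97.0 with hairpin 2, a log2 rise of 0.61 ± 0.15 in each line (adjusted p = 0.0145 and 0.035). Herc6, the mouse ligase for ISG15, stood at 4.69 and 5.06, 7.10 and 8.58, and 7.32 and 9.52 CPM, with rises of 0.59 ± 0.12 (adjusted p = 0.00661) and 0.72 ± 0.11 (adjusted p = 0.0114). Samhd1, which hydrolyses deoxynucleotides, stood at 42.2 and 43.1, 59.3 and 63.4, and 54.3 and 54.2 CPM, with rises of 0.44 ± 0.05 (adjusted p = 0.00103) and 0.29 ± 0.05 (adjusted p = 0.0167). In all 3 genes both hairpin lines lay above both control libraries. Zbp1, a sensor of Z-form nucleic acid, stood at 7.56 and 8.08, 11.7 and 14.3, and 6.80 and 12.7 CPM and rose with hairpin 1 (0.64 ± 0.18, adjusted p = 0.0295), and its hairpin 2 difference from control did not pass (0.22 ± 0.19, adjusted p = 0.457). Parp14 (0.72 ± 0.17, adjusted p = 0.0123) and Xaf1 (0.56 ± 0.17, adjusted p = 0.0323) were called higher with hairpin 1, at 6.92 and 6.94 against 12.7 and 11.5 CPM, and at 22.5 and 24.2 against 34.6 and 38.4 CPM. Rtp4 was called higher with hairpin 2 (0.67 ± 0.13, adjusted p = 0.0215), at 14.9 and 14.6 CPM in control and 20.8 and 27.9 with hairpin 2. Oas1a, at 0 to 0.263 CPM, was the member left out by the filter.

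These tumour-gate counts changed when single libraries were left out, which also leaves fewer residual degrees of freedom. The share of all genes called is not given here for any fit with a library left out, in this gate or elsewhere. Whether the counts changed more for members than for all genes was not tested. Without the hairpin 1 anti-PD1 library 5 members were called between the hairpins, without the hairpin 2 IgG library 21, and without the hairpin 2 anti-PD1 library 11, of which 7 were higher and 4 lower (median 0.03). Against control, the hairpin 1 count fell from 12 to 7 without the control anti-PD1 library (5 higher, 2 lower), to 5 without the hairpin 1 IgG library and to 7 without the hairpin 1 anti-PD1 library, and the hairpin 2 count of 14 became 3 without the control anti-PD1 library and 22 without the hairpin 2 IgG library. Neutrophil markers summed to 41.6 and 42.4 CPM in the control libraries of the tumour gate, to 50.6 and 74.7 with hairpin 1 and to 30.1 and 45.7 with hairpin 2, and macrophage markers to 38.4 and 43.2, 32.2 and 42.7, and 26.4 and 33.0 CPM. Gene by gene, 6 of the 8 neutrophil markers were lower and 1 higher with hairpin 1 than in control (median -1.72), and 5 were lower and 0 higher with hairpin 2 (median -1.11). The part of these markers in the member values was not tested.

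In macrophages, which carry no hairpin, the members were lowest in the hairpin 1 tumours and highest in the hairpin 2 tumours. Member UMIs summed to 2675 (IgG) and 2693 CPM (anti-PD1) in control tumours, 2050 and 2097 in hairpin 1 tumours, and 3391 and 3139 in hairpin 2 tumours. Of 38 members 32 were called higher in hairpin 2 than in hairpin 1 tumours and 0 lower, with a median of 0.78, where 7.62% of all genes were called, 3.89% higher and 3.73% lower, with a median of 0.00. All 38 members had both hairpin 2 values above both hairpin 1 values, as did 26.2% of all genes tested, and 0 had both below (23.3%). Against control, hairpin 1 tumours had 20 members lower and 0 higher (median -0.48), where 8.97% of all genes were called, 4.76% lower and 4.21% higher. Hairpin 2 tumours had 9 members higher than control and 0 lower (median 0.29), where 3.55% of all genes were called, 1.34% higher and 2.21% lower. Both hairpin 1 libraries lay below both control libraries for 27 of 38 members (23.6% of all genes) and above for 1 (28%), and both hairpin 2 libraries above control for 28 (30.2%) and below for 0 (18.9%). The 9 called higher with hairpin 2 were Ifit3, Oasl2, Bst2, Ifi44, Xaf1, Rtp4, Trim30a, Irf7 and Zbp1.

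Mx1, a dynamin-like GTPase that blocks viral replication, showed the largest fall with hairpin 1. It stood at 37.8 and 36.0 CPM in macrophages of control tumours, 13.3 and 12.0 in hairpin 1 tumours, and 40.4 and 30.4 in hairpin 2 tumours. The log2 difference of hairpin 1 from control was -1.58 ± 0.14 (adjusted p = 0.000269), hairpin 2 exceeded hairpin 1 by 1.46 ± 0.14 (adjusted p = 0.000538), and hairpin 2 overlapped control. Rsad2 stood at 131 and 174 CPM in control, 51.7 and 74.3 with hairpin 1, and 142 and 98.4 with hairpin 2, and its log2 difference of hairpin 1 from control was -1.31 ± 0.20 (adjusted p = 0.00366). Cmpk2, a nucleotide kinase encoded beside Rsad2 on chromosome 12, followed it, with 29.6 and 31.9, 10.6 and 14.2, and 34.1 and 21.7 CPM (-1.33 ± 0.22, adjusted p = 0.00582). Oasl1, which restrains IRF7 translation, stood at 42.3 and 35.4, 16.7 and 17.5, and 39.7 and 31.5 CPM (-1.20 ± 0.14, adjusted p = 0.000841). In these 4 genes the hairpin 1 libraries stood apart below the other 4, and control and hairpin 2 overlapped.

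The IFIT genes and Isg15 fell with hairpin 1 as well. Ifit3 stood at 54.3 and 43.2 CPM in control, 34.1 and 23.2 with hairpin 1, and 79.0 and 61.4 with hairpin 2, with log2 differences of -0.80 ± 0.10 (hairpin 1 from control, adjusted p = 0.00148), 0.48 ± 0.10 (hairpin 2 from control, adjusted p = 0.0278) and 1.28 ± 0.10 (between the hairpins, adjusted p = 0.000293). Its 3 lines formed 3 separate steps. Ifit1 stood at 26.4 and 27.2, 9.84 and 16.4, and 26.4 and 26.7 CPM, with only the hairpin 1 line apart (-1.06 ± 0.19 from control, adjusted p = 0.00814). Ifit2 stood at 85.7 and 68.7, 34.1 and 44.0, and 105 and 69.9 CPM (-0.99 ± 0.18, adjusted p = 0.00796), and Ifit3b at 11.8 and 7.78, 5.66 and 2.76, and 15.1 and 9.52 CPM (-1.27 ± 0.24, adjusted p = 0.00993). Isg15 stood at 107 and 106 CPM in control, 58.0 and 62.8 with hairpin 1, and 148 and 126 with hairpin 2, with a log2 difference of -0.84 ± 0.09 for hairpin 1 from control (adjusted p = 0.000789) and 1.16 ± 0.09 between the hairpins (adjusted p = 0.000293). Usp18 stood at 13.6 and 14.0, 7.01 and 10.2, and 18.8 and 19.2 CPM, a rise of 1.13 ± 0.19 between the hairpins (adjusted p = 0.00841).

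Irf7 and a few others stepped in both directions from control. Irf7 stood at 59.2 and 56.6 CPM in macrophages of control tumours, 36.5 and 39.6 of hairpin 1 tumours, and 87.5 and 90.9 of hairpin 2 tumours. The hairpin 1 difference from control was -0.63 ± 0.09 (adjusted p = 0.00309) and the hairpin 2 difference 0.59 ± 0.09 (adjusted p = 0.00702). Oasl2 (43.4 and 42.0, 26.4 and 29.8, and 63.3 and 59.0 CPM), Rtp4 (40.2 and 45.4, 24 and 30.6, and 59.6 and 64.2 CPM) and Trim30a (132 and 131, 97.8 and 106, and 184 and 169 CPM) were also called lower with hairpin 1 and higher with hairpin 2. Stat2 (104 and 112, 72.1 and 86.3, and 131 and 135 CPM) and Ifih1 (89.3 and 79.7, 63.5 and 59.6, and 110 and 88.1 CPM) were called lower with hairpin 1, and their hairpin 2 differences from control did not pass (adjusted p = 0.125 and 0.323). Oas2, an RNA-activated synthetase, stood at 22.1 and 21.8, 11.2 and 14.2, and 32.2 and 27.3 CPM and rose by 1.21 ± 0.17 between the hairpins (adjusted p = 0.00364).

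Zbp1, Xaf1 and Bst2 did not fall with hairpin 1 by the test. Zbp1 stood at 21.7 and 25.1, 21.2 and 21.0, and 42.5 and 40.5 CPM, and Xaf1 at 17.0 and 20.9, 17.7 and 22.2, and 33.2 and 33.0 CPM, both with the hairpin 2 libraries apart above the other 4. Bst2 stood at 222 and 221, 247 and 242, and 283 and 297 CPM, a rise of 0.35 ± 0.07 over control with hairpin 2 (adjusted p = 0.0277), while its difference between the hairpins did not pass (adjusted p = 0.0826). The other members not called between the hairpins were Oas1a, Oas3, Ifi35, Ifi27l2a and Trim25. Without the hairpin 1 IgG library 21 of the 38 members were called between the hairpins, and without the control IgG library 1 member, not 9, was called higher with hairpin 2 than in control. Neutrophil markers summed to 1454 and 1420 CPM in macrophages of control tumours, 880 and 962 of hairpin 1 tumours, and 869 and 781 of hairpin 2 tumours. Gene by gene, 6 of the 8 were lower with hairpin 1 than in control (median -2.28) and 6 were lower with hairpin 2 (median -1.84), and between the hairpins 2 were higher and 1 lower with hairpin 2 (median 0.67). The genes of the tumour gate, Spp1, Grem1 and Cdkn2a, summed to 2976 and 2045, 1154 and 1513, and 1727 and 2099 CPM in macrophages, with 2 of 3 lower with hairpin 1 than in control (median -0.78) and 2 of 3 higher with hairpin 2 than with hairpin 1 (median 0.85). Endothelial markers summed to 49.9 and 46.0, 41.7 and 58.0, and 85.5 and 92.3 CPM, with 2 of 8 higher with hairpin 2 than with hairpin 1 (median 1.07). The part of these 3 marker lists in the member values was not tested.

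**Figure D2:**
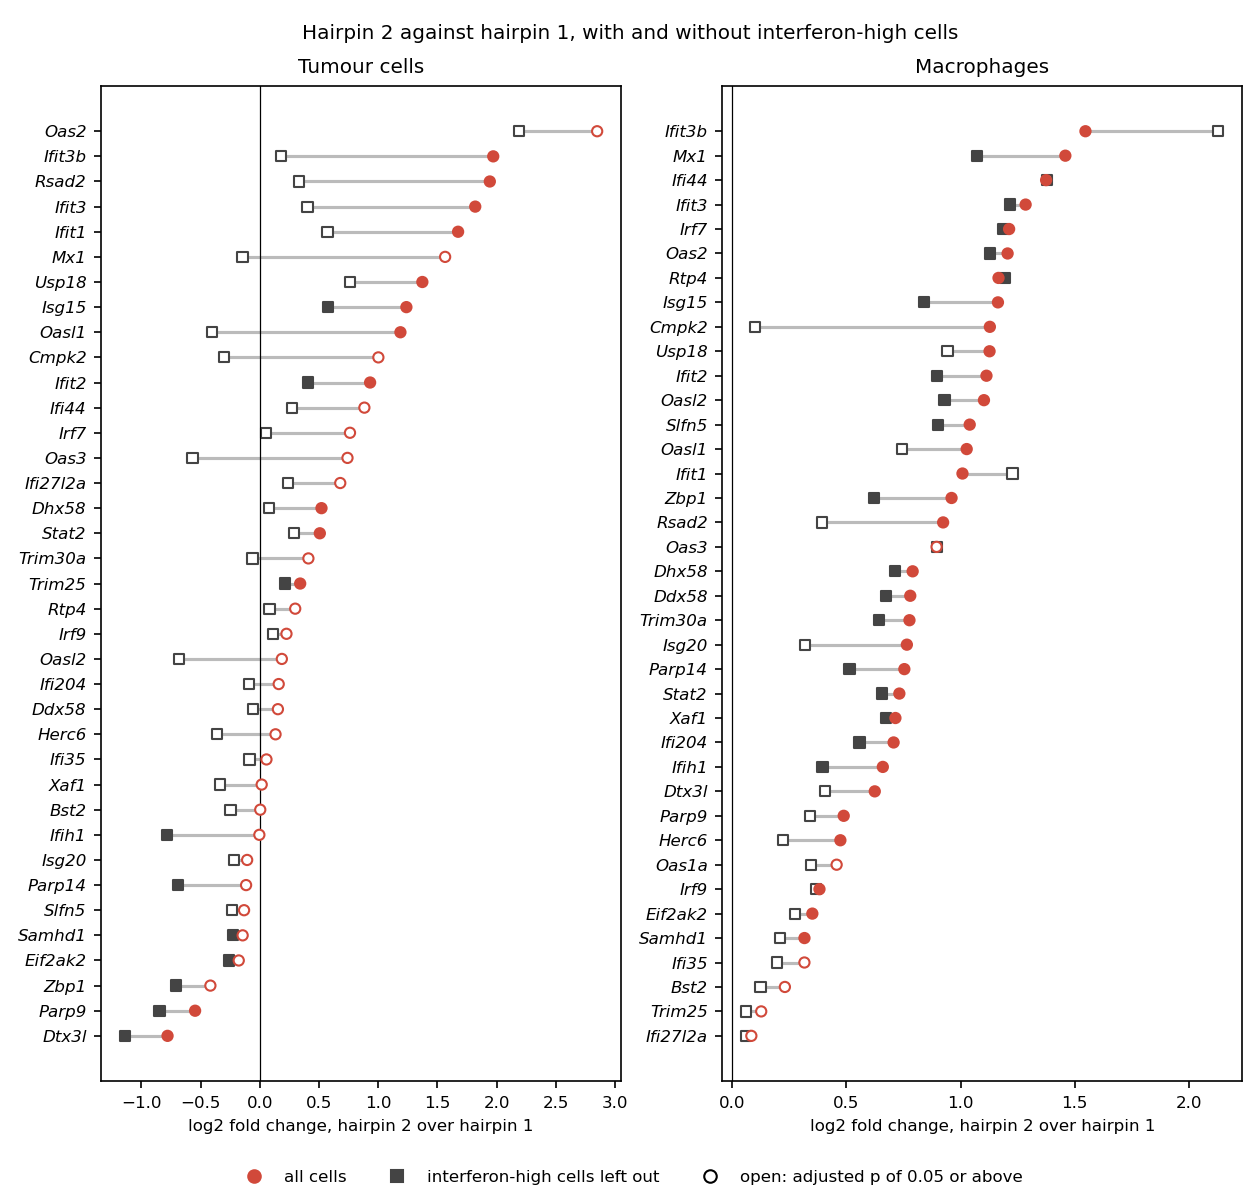
Log2 difference between hairpin 2 and hairpin 1 for each member, in the tumour gate and in macrophages, from sums over all cells (red circles) and from sums without the interferon-high cells (dark squares); open symbols did not pass an adjusted p of 0.05. In macrophages the symbols lie to the right of 0 with either set of cells, whereas in the tumour gate squares lie on both sides of 0. Those of Dtx3l, Parp9, Ifih1, Zbp1, Parp14, Eif2ak2 and Samhd1 are among the squares to the left. The median of the tumour-gate squares was -0.22 over the 29 members that took no part in choosing the interferon-high cells.

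Whether a member's difference between lines was the same in the tumour gate and in macrophages was tested over 12 sums with the library as a block, a comparison added after the values were seen. For hairpin 1 against control, 14 of 38 members differed between the gates, all 14 more negative in macrophages, where 8.87% of all genes were called, 3.78% more negative and 5.09% more positive. Oasl2 had the largest such difference (-1.82 ± 0.26, adjusted p = 0.00231), with log2 differences of 1.20 in the tumour gate and -0.63 in macrophages. Ifih1 stood at 0.78 and -0.48, a difference of -1.27. A call did not always mean opposite signs, as for Isg15, at -0.08 in the tumour gate and -0.84 in macrophages, and Bst2, at 0.61 and 0.12. For hairpin 2 against hairpin 1, 11 of 38 members differed, all 11 more positive in macrophages, where 5.78% of all genes were called, 2.41% more positive and 3.37% more negative. Dtx3l led that group at 1.42 ± 0.20 (adjusted p = 0.00239). For hairpin 2 against control, 2 members differed (Oasl1 and Ifit3, both more positive in the tumour gate), where 1.42% of all genes were called, 0.793% in that direction and 0.623% in the other. Of these counts, the 14 became 7 without the control anti-PD1 library, 24 without the hairpin 1 anti-PD1 library and 22 without the hairpin 2 anti-PD1 library. The 11 became 19 without the hairpin 1 anti-PD1 library, and the 2 became 9 to 13 without the control IgG, hairpin 1 IgG, hairpin 1 anti-PD1 or hairpin 2 IgG library.

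Over all 3 lines, edgeR's quasi-likelihood test called 0 members between anti-PD1 and IgG in the tumour gate and 0 in macrophages, as did DESeq2, and 0% of all genes were called in either gate. At an unadjusted p below 0.05, 9 of 37 members differed in the tumour gate and 4 of 38 in macrophages. Of all genes tested, 1085 of 15568 and 957 of 12642 did so. All 37 tumour-gate members had a positive difference, with a median of 0.26, against 21 of 38 in macrophages. Positive differences were seen for 7961 of all genes tested in the tumour gate and for 6364 in macrophages. Counts line by line rest on 1 library each in CPM, so there is no test. They were made for the members only, and no share of all genes stands beside them. In the tumour gate 21 of 37 members were higher with anti-PD1 in the control line and 21 in the hairpin 1 line, with median log2 ratios of 0.03 and 0.06. In the hairpin 2 line 35 of 37 were higher, with a median of 0.71, and 11 differed by more than 2-fold. Cmpk2 had the largest ratio there, from 0.677 to 4.60 CPM, with Rsad2 from 5.80 to 18.2 and Mx1 from 1.56 to 4.58 CPM. In macrophages of the hairpin 2 tumours 14 of 38 were higher with anti-PD1, with a median of -0.11, so most members of the macrophages in that library were not higher.

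The endothelial gate was small, at 24 to 82 cells a library. Of its 25 members that passed the filter, 6 were called higher in hairpin 2 than in hairpin 1 tumours and 0 lower (median 1.53), where 0.973% of all genes were called, 0.637% higher and 0.336% lower. Isg15 stood at 176 and 78.5 CPM in control tumours, 30.0 and 41.5 in hairpin 1 tumours, and 110 and 311 in hairpin 2 tumours (2.55 ± 0.51, adjusted p = 0.0216). Rsad2 stood at 68.5 and 81.9, 3.76 and 0, and 59.7 and 387 CPM (adjusted p = 0.000763), Irf7 at 34.3 and 37.5, 0 and 12.5, and 53.7 and 107 CPM (adjusted p = 0.0108), and Stat2 at 162 and 130, 45.1 and 74.7, and 131 and 209 CPM (adjusted p = 0.0382). Both hairpin 1 libraries lay lowest for each of these 4 genes. The hairpin 1 sums of this gate held 266242 (IgG) and 240957 UMIs (anti-PD1), so the hairpin 1 values of Rsad2 and Irf7 rest on very few UMIs. Bst2 (416 and 403, 240 and 324, and 471 and 612 CPM) and Parp9 (68.5 and 68.2, 15.0 and 20.8, and 62.6 and 97.3 CPM) were the others called. The hairpin 1 IgG library of this gate also held 868 CPM of fibroblast markers and 2738 CPM of tumour-gate genes, against at most 119 and 202 CPM in the other libraries, and without the hairpin 2 anti-PD1 library 1 member was called. Without the control IgG, hairpin 1 anti-PD1 or hairpin 2 IgG library the count was 11, and without the control anti-PD1 library 12. Ifit1, Ifit3 and Usp18 did not pass the filter here, at 0 to 45.1, 0 to 154 and 3.76 to 35.6 CPM, with the hairpin 2 anti-PD1 library highest in each. Oasl2 (7.51 to 58.7 CPM) and Ifih1 (15.0 to 95 CPM) did not pass the test.

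In the neutrophil gate, at 32 to 413 cells a library, 3 of 31 members were called higher with hairpin 2 than with hairpin 1 and 0 lower (median 0.74), where 0.267% of all genes were called, 0.2% higher and 0.0667% lower. Ifit2 stood at 17.1 and 29.9 CPM in control tumours, 12.7 and 32.2 in hairpin 1 tumours, and 182 and 193 in hairpin 2 tumours (2.88 ± 0.51, adjusted p = 0.0451). Ifit3 stood at 8.55 and 26.8, 0 and 4.60, and 119 and 157 CPM (adjusted p = 0.0377), and Rsad2 at 291 and 453, 280 and 419, and 804 and 1253 CPM (1.56 ± 0.27, adjusted p = 0.0416). For these 3 genes both hairpin 2 libraries lay above the other 4. The hairpin 1 sums of this gate held 78602 (IgG) and 217172 UMIs (anti-PD1), so the hairpin 1 values of Ifit2 and Ifit3 rest on very few UMIs. Ifit1 (22.8 and 37.1, 12.7 and 36.8, and 69.9 and 193 CPM), Isg15 (215 and 245, 318 and 262, and 426 and 752 CPM) and Ifih1 (64.1 and 54.7, 38.2 and 46.0, and 105 and 206 CPM) had both hairpin 2 libraries above the other 4 as well, but did not pass (adjusted p = 0.117, 0.252 and 0.175). Usp18 (18.4 to 107 CPM), Oasl2 (161 to 259 CPM), Irf7 (13.8 to 73.7 CPM), Stat2 (25.4 to 161 CPM) and Bst2 (27.1 to 436 CPM) did not pass either. Without either of the hairpin 1 libraries 0 members were called. Of the cells in this gate 40.5% held at least 2 Tyrobp UMIs. Without either control library 7 were called, and without the hairpin 2 IgG library 8.

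The members were not spread evenly over the cells. A cell was named interferon-high when, after thinning every cell to 2000 UMIs, it held at least 4 UMIs of 8 members together (Ifit1, Ifit2, Ifit3, Ifit3b, Isg15, Rsad2, Usp18 and Cmpk2), and the other 30 members were left out of the choice. In the tumour gate 384 of 23459 cells deep enough to thin were interferon-high (1.64%), and 90.0% of cells held no UMI of the 8 genes. The top 1% of tumour-gate cells held 47.6% of the 8-gene UMIs, and 1.11% of cells were enough to hold 50% of them. In macrophages 311 of 6807 cells (4.57%) were interferon-high.

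**Figure D3:**
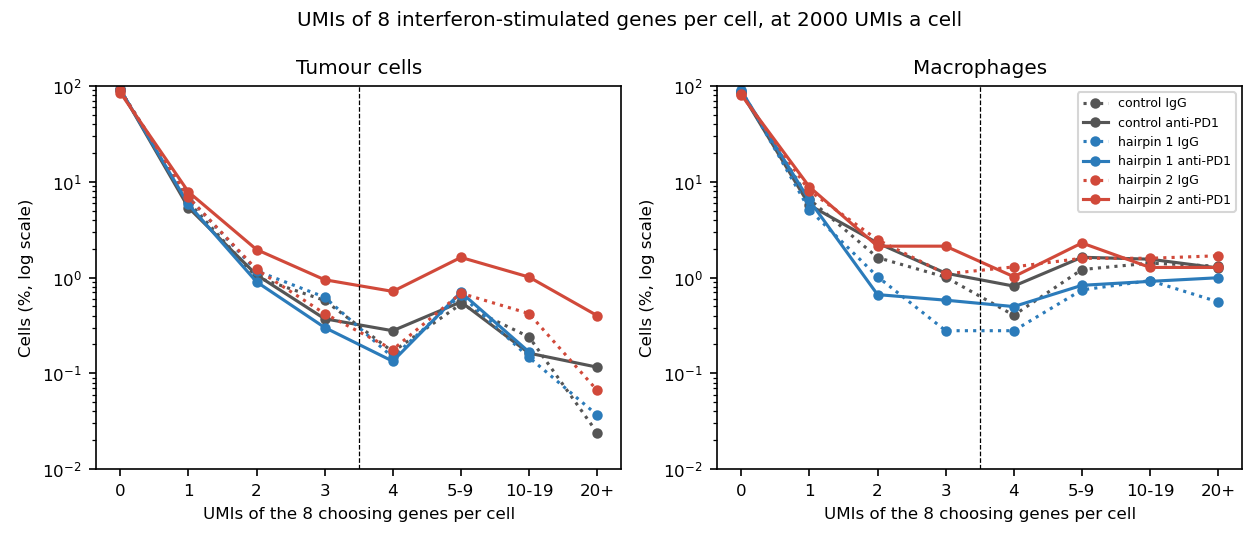
Share of cells (percent, log axis) by the number of UMIs of the 8 choosing genes after thinning to 2000 UMIs, in the tumour gate and in macrophages, for each library (solid lines anti-PD1, dotted lines IgG, dashed vertical line at 4 UMIs; empty bins are not drawn). Most cells sit at 0, and in the tumour gate the hairpin 2 anti-PD1 library lies above the other 5 across the bins to the right of the dashed line.

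The share of interferon-high tumour-gate cells was similar in 5 libraries and higher in the sixth. It was 0.960% in the control IgG library (40 of 4165 cells; exact 95% binomial interval 0.687 to 1.31%) and 1.11% in the control anti-PD1 library (48 of 4312; 0.822 to 1.47%). It was 0.991% (27 of 2725; 0.654 to 1.44%) and 1.00% (30 of 2992; 0.677 to 1.43%) with hairpin 1. With hairpin 2 it was 1.35% in the IgG library (61 of 4520; 1.03 to 1.73%) and 3.75% in the anti-PD1 library (178 of 4745; 3.23 to 4.33%). The interval of the hairpin 2 anti-PD1 library did not overlap any other, and those of the other 5 libraries overlapped one another; the intervals cover counting error in 1 library only. In macrophages the shares were 4.34% (43 of 990; 3.16 to 5.81%) and 5.26% (71 of 1351; 4.13 to 6.58%) in control tumours, 2.51% (27 of 1077; 1.66 to 3.63%) and 3.23% (39 of 1206; 2.31 to 4.39%) in hairpin 1 tumours, and 6.16% (62 of 1007; 4.75 to 7.82%) and 5.87% (69 of 1176; 4.59 to 7.37%) in hairpin 2 tumours. Both hairpin 1 shares were below the other 4, and the hairpin 2 intervals lay above the hairpin 1 intervals without overlap. With a cutoff of 8 UMIs, or with thinning to 5000 UMIs, the intervals of the 2 hairpins overlapped in part. Without thinning, 6.08% of tumour-gate cells and 5.71% of macrophages passed 4 UMIs. In the endothelial gate 17 of 258 cells were interferon-high with 0 of 20 and 0 of 37 in the hairpin 1 libraries, which allow shares of up to 15.0% and 8.11% (3 counts of the total; the exact upper bounds are 16.8% and 9.49%). In the neutrophil gate 22 of 169 cells were interferon-high.

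**Figure D4:**
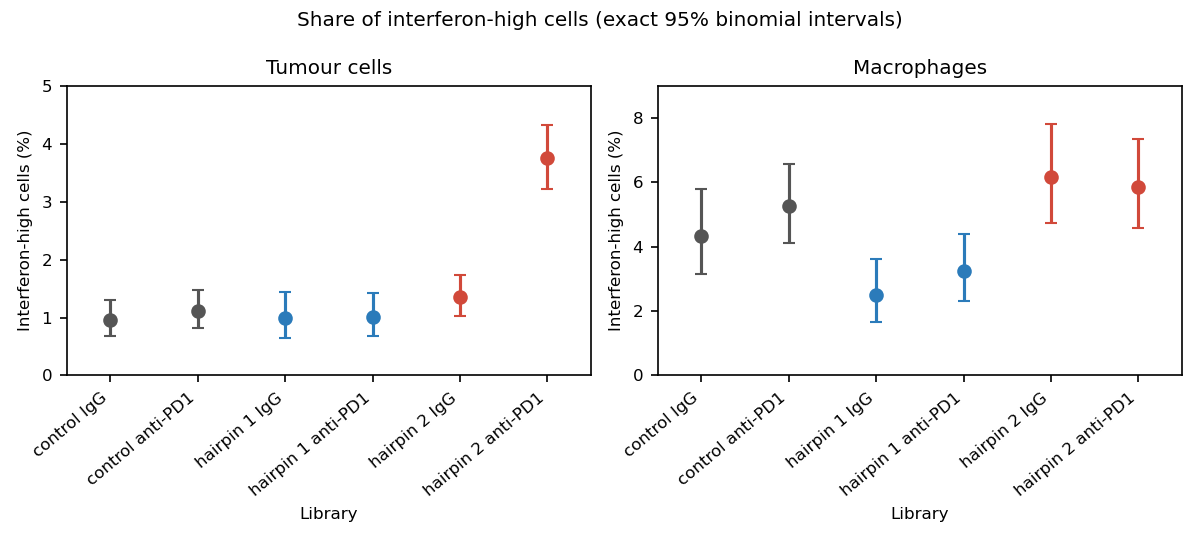
Interferon-high cells as a percentage of the cells with at least 2000 UMIs, per library and gate, with exact 95% binomial intervals (bars). In the tumour gate the hairpin 2 anti-PD1 library stands at 3.75% and the other 5 between 0.960% and 1.35%, while in macrophages both hairpin 1 libraries are lowest.

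The 30 members that took no part in choosing the cells were higher in them too. An interferon-high tumour-gate cell held 11.3 UMIs of these 30 members per 2000 UMIs on average, and the remaining cells 1.06, with a median of 7 members detected against 1. In macrophages the means were 26.5 and 3.91 UMIs and the medians 13 and 2 members. Stat2 was detected in 55.7% of interferon-high tumour-gate cells and in 7% of the others, Bst2 in 70.1% and 9.83%, Ifih1 in 38.3% and 1.77%, Irf7 in 20.8% and 0.516%, and Mx1 in 14.3% and 0.126%. Before thinning, the median interferon-high tumour-gate cell had 8805 UMIs and the median other cell 10760. Of genes outside the members, 17 of 20 on the list of interferon-gamma targets were higher in interferon-high tumour-gate cells in 6 of 6 libraries, with no test. So were 5 of 10 signal transducers, 2 of 12 sensors and adaptors, 1 of 5 inhibitors and 1 of 6 receptors. The same count was not made over all genes, so these counts have no share to stand beside. Which interferon acted on these cells was not tested. The chemokine gene Cxcl10 stood at 955 CPM in interferon-high tumour-gate cells and 9.92 in the others, the guanylate-binding protein gene Gbp2 at 775 and 28.7, and Tlr3, a sensor of double-stranded RNA, at 19.8 and 2.38. Ifnar1 stood at 45.5 CPM in them and 46.9 in the others, and was higher in 2 of 6 libraries.

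How much of a member lay in these few cells differed from gene to gene. In the tumour gate the interferon-high cells held 84.8% of Ifit3 UMIs, 84.6% of Rsad2 and 78.1% of Ifit1, which were among the choosing genes, and 76.2% of Mx1, which was not. They held 43.5% of Irf7, 39.7% of Oasl2, 35.8% of Ifih1, 18.4% of Stat2 and 18.1% of Bst2. At the other end they held 6.82% of Eif2ak2, the RNA-activated kinase PKR, 5.81% of Samhd1 and 5.78% of Isg20, a 3′ to 5′ exonuclease. Outside the interferon-high cells Mx1 was detected in 0.126% of tumour-gate cells, Samhd1 in 9.18% and Eif2ak2 in 10.7%. In macrophages the order was similar at the top (Ifit3 87.5%, Rsad2 90.9%, Mx1 80.6%), but Isg20 had 52.0% of its UMIs in interferon-high cells there and Zbp1 39.5%, against 17.8% for Zbp1 in the tumour gate. Ifit2, one of the choosing genes, had 35.7% of its tumour-gate UMIs in interferon-high cells. In the hairpin 2 anti-PD1 library the interferon-high tumour-gate cells held 27.7% of the UMIs of the 30 other members, against 5.99 to 15.3% in the other 5 libraries.

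**Figure D5:**
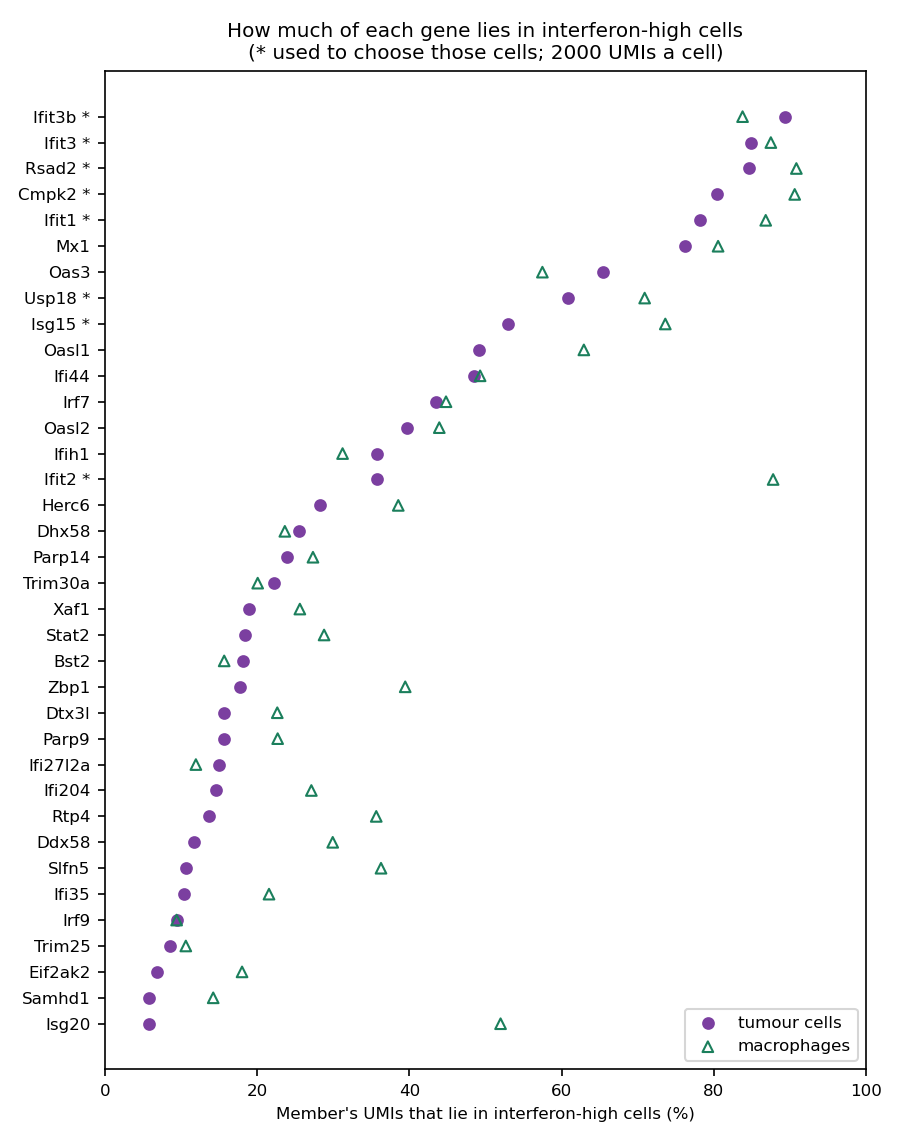
Percentage of the thinned UMIs of each member that lay in interferon-high cells, in the tumour gate (dots) and in macrophages (triangles), for members with at least 20 thinned tumour-gate UMIs; an asterisk marks the genes that chose the cells. In the tumour gate the values run from 89.3% for Ifit3b down to 5.78% for Isg20.

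The sums were made again without the interferon-high cells, and cells too shallow to thin were judged for this on all their UMIs. This left out 414 tumour-gate cells (384 found after thinning and 30 shallower) and 405 macrophages (311 and 94). The summed tumour-gate level of the members was then 455 and 463 CPM in control, 605 and 620 with hairpin 1, and 493 and 622 with hairpin 2. The hairpin 2 anti-PD1 library, highest over all cells, then lay at the level of the hairpin 1 libraries. It went from 4971 to 4779 cells, and the hairpin 1 libraries from 2808 to 2779 (IgG) and from 3153 to 3122 (anti-PD1). The cells left out held more of the other members too, so their removal lowers the sum most where they were most frequent. The comparisons that follow carry the same limit, and no share of all genes called without these cells is given beside them. Of the 29 tested members outside the choosing genes, 4 were called higher and 2 lower between the hairpins over all cells (median 0.16). Of all genes 16.1% were called higher and 14.8% lower there, so neither member count exceeds the share of all genes. Without the interferon-high cells 1 of the 29 was called higher and 7 lower (median -0.22). The 7 were Dtx3l (-1.14), Parp9 (-0.85), Ifih1 (-0.78), Zbp1 (-0.71), Parp14 (-0.69), Eif2ak2 (-0.26) and Samhd1 (-0.23), and the 1 was Trim25 (0.21). Against control, hairpin 1 had 11 of 29 called higher over all cells and 12 without these cells (median 0.32 and 0.42), among them Oasl2 at 1.44 and Ifih1 at 1.21. Hairpin 2 against control went from 9 members higher to 3 higher and 1 lower. Among the choosing genes, which the removal lowers by construction, Isg15 still differed between the hairpins (0.58 ± 0.17, adjusted p = 0.0372), as did Ifit2 (0.41).

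In macrophages, 0 members were lower in hairpin 2 than in hairpin 1 tumours with or without these cells. Of the 30 members outside the choosing genes, 24 were called higher in hairpin 2 than in hairpin 1 tumours over all cells (median 0.74), where 3.89% of all genes were. Without those cells 15 of the 30 were called higher (median 0.59), and the share of all genes is not given for these reduced sums. Hairpin 1 against control went from 13 members lower to 7 lower, and hairpin 2 against control had 8 members higher both times. The cells kept thus also differed between the hairpins, in the direction seen over all cells. The removal was incomplete. Cells with 2 UMIs of the choosing genes were kept, 2.48% (IgG) and 2.13% (anti-PD1) of thinned macrophages with hairpin 2, and 1.02% and 0.663% with hairpin 1. Cells too shallow to thin had fewer UMIs in which to reach the cutoff. They were 579 of 1586 and 606 of 1782 with hairpin 2, and 242 of 1319 and 480 of 1686 with hairpin 1. Whether macrophages apart from such cells differed was not tested.

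The rest of the pathway was read from lists of genes on either side of the members. No interferon ligand passed the filter in any gate: the tumour gate held 1 Ifnb1 UMI in 6 libraries, and macrophages held 3 and 9 in the control libraries, 1 in the hairpin 2 IgG library and 0 in the other 3. Of 5 receptor genes tested in the tumour gate, 0 were called between the hairpins, and against control hairpin 1 had Ifngr1, the interferon-gamma receptor, higher (0.36) and Il10rb lower (-0.28), as had hairpin 2 (0.29 and -0.33). Of all genes, 30.9% were called between the hairpins, and 42.2% (hairpin 1) and 15.3% (hairpin 2) against control. Ifnar1 stood at 41.9 to 50.2 CPM and Ifnar2 at 43.3 to 50.6 CPM over the 6 libraries and neither was called. In macrophages 0 of 5 receptor genes were called in any of the 3 comparisons, where 3.55 to 8.97% of all genes were called. Those genes encode the receptor subunits, and these values are its RNA level only.

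Among 10 signal transducers tested in the tumour gate, 2 were higher and 3 lower with hairpin 2 than with hairpin 1, 4 higher and 2 lower with hairpin 1 than in control, and 2 higher and 1 lower with hairpin 2 than in control, against 30.9%, 42.2% and 15.3% of all genes called. Irf1, a factor induced by interferon-gamma, stood at 44.5 and 49.2, 78.1 and 100.4, and 48.0 and 57.8 CPM, with hairpin 1 apart above the rest (0.83 over control, adjusted p = 0.00019). Of 19 interferon-gamma targets tested in the tumour gate, 13 were higher with hairpin 1 than in control (21.1% of all genes), 12 were higher with hairpin 2 than in control (7.71%), and 4 were lower with hairpin 2 than with hairpin 1 (14.8%). In macrophages 5 were higher with hairpin 1 (4.21% of all genes), 10 were higher with hairpin 2 (1.34%), and 4 were higher with hairpin 2 than with hairpin 1 (3.89%). Of the sensors and adaptors, Myd88 and Adar were higher with hairpin 2 than with hairpin 1 in macrophages, 2 of 12 tested (3.89% of all genes). Among 5 inhibitors 0 were called in that comparison (7.62% of all genes in either direction). In the tumour gate 2 of 10 sensors and adaptors were higher and 0 lower between the hairpins. Of 5 inhibitors there 1 was higher and 1 lower, where 16.1% of all genes were higher and 14.8% lower.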

How the data were processed

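UMI counts per gene and cell were deposited as matrices by the authors. Reads were assigned with Cell Ranger 7.0.1 to mm10, per the submitters' processing notes and the file headers. Barcodes with at least 300 genes and at most 20% mitochondrial UMIs were kept, doublets were removed with Scrublet (in scanpy 1.11.5; 0.866 to 1.66% of cells a library), and barcodes that met more than 1 gate were left out. Counts were summed per library and gate, because cells are not replicates. The sums were tested with edgeR 4.0.16 (quasi-likelihood test, TMM, filterByExpr) with terms for line and for treatment (residual degrees of freedom: 2) and Benjamini-Hochberg adjustment over all genes. CPM are counts scaled to 1000000 UMIs per sum. Nothing in the labels says that libraries came from separate cultures or animals of 1 group, so p-values measure the spread between these libraries only. Each line and treatment has 1 library, so that spread is what remains after the line and treatment terms. A treatment difference that varies between lines counts as part of it. Median log2 ratios of anti-PD1 to IgG over the tumour-gate members were 0.03 in control, 0.06 with hairpin 1 and 0.71 with hairpin 2. On simulated counts for the tumour gate (15325 genes) the test recovered 87% of 2-fold and 96% of 4-fold changes, and for the neutrophil gate 7% and 53%.

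Values in every library are given for the 10 called members with the largest difference among those with a mean of at least 5 CPM and for 10 fixed members. The members, gates, lists and definition of interferon-high cells were chosen with earlier results of these data known. Alternatives were DESeq2 1.42.0, no filter on low counts, each library left out in turn, other gates, doublets kept, other cutoffs and the removal of interferon-high cells. The endothelial gate was defined for this work.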

Additional observations from a re-analysis of the deposited data

Results flagged for a closer look

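Interferon ligand transcripts lay outside the members and were counted over all cells of a library, gated or not. Ifnb1, the interferon-beta gene, had 66 UMIs in the hairpin 2 IgG library, against 4 and 9 in the control libraries, 0 and 1 with hairpin 1 and 0 in the hairpin 2 anti-PD1 library, and 65 of the 66 lay in 1 cell. The interferon-alpha genes together had 29 UMIs in that library, against 1 and 0 in the control libraries and 0 in the other 3, and 26 of them lay in the same cell. That cell met no gate. It held 4517 UMIs, of which 409 belonged to the members, with 10 UMIs of Ptprc. The macrophage markers had 43 UMIs over 6 of 10 genes, with no C1q UMI, and the neutrophil markers 3 UMIs over 2 of 8 genes. None was seen of 4 plasmacytoid markers (Siglech, Ccr9, Cox6a2 and Klk1) or 6 other dendritic cell markers. Klk1 had no UMI in any gate. Bst2 and Irf8, also plasmacytoid markers, were counted in other lists, and their UMIs in this cell are not given here. Ifng, the interferon-gamma gene, had 34 UMIs in the hairpin 2 anti-PD1 library, against 8 and 3 in the control libraries, 6 and 5 with hairpin 1 and 7 in the hairpin 2 IgG library, and 31 of the 34 lay in 1 cell. These counts rest on single cells and have no replicate.

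The members' differences between lines differed between macrophages and the tumour gate by an interaction test in edgeR. It called 14 of 38 members for hairpin 1 against control, 11 for hairpin 2 against hairpin 1 and 2 for hairpin 2 against control. The comparisons share libraries.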

How the results depend on the processing

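Of the recomputed counts, 129 stayed within 1.5 times the reported count and 58 did not, and of the recomputed member values 1175 kept their side of the threshold, 273 lost it in the same direction and 1 reversed: Oasl1 between the hairpins in the tumour gate became -0.40 without the interferon-high cells. Without the filter on low counts, members called numbered 20 (tumour gate, between the hairpins), 23 (tumour gate, hairpin 2 against control), 1 (tumour gate, anti-PD1), 17 (macrophages, hairpin 2 against control), 2 (macrophages, anti-PD1), 8 (neutrophils, between the hairpins), 15 (endothelium, between the hairpins) and 8 (the gates compared, hairpin 2 against control). DESeq2 called 12 (macrophages, hairpin 1 against control), 1 (macrophages, hairpin 2 against control) and 0 (endothelium, between the hairpins). Without the interferon-high cells the counts were 5 (tumour gate, hairpin 2 against control), 18 (macrophages, between the hairpins), 8 (macrophages, hairpin 1 against control), 0 (neutrophils, where 134 cells were left out, 112 of them too shallow to thin) and 0 (endothelium). Between the hairpins, neutrophils also gave 0 with barcodes of several gates kept and 0 with at least 2 Tyrobp UMIs (14 to 176 cells a library, too few for that 0 to say much), and endothelium gave 1 with barcodes of several gates kept and 2 with at least 6 gate UMIs. The cause of these changes was not tested.

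Lines were compared within treatment by the treatment term, and the labels give no replicate number by which to pair libraries further. Fits without that term, that is with no replicate block, called 14, 10 and 14 members in the tumour gate (between the hairpins, hairpin 1 and hairpin 2 against control), 30, 19 and 7 in macrophages, 0 in neutrophils and 4 in endothelium.

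With each library left out in turn, the counts ranged from 5 to 21 between the hairpins, 5 to 18 for hairpin 1 and 3 to 22 for hairpin 2 against control in the tumour gate, and from 21 to 33, 14 to 22 and 1 to 13 in macrophages. They ranged from 0 to 0 and 0 to 1 for anti-PD1 in these gates, 0 to 8 in neutrophils and 1 to 12 in endothelium, 34 to 35, 32 to 36 and 27 to 31 for macrophages, neutrophils and endothelium against the tumour gate, and 8 to 19 (between the hairpins), 7 to 24 (hairpin 1) and 2 to 13 (hairpin 2 against control) for the gates compared.

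The share of interferon-high tumour-gate cells was 3.45% at a cutoff of 2 UMIs, 0.729% at 8, 6.08% without thinning and 2.79% at 5000 UMIs, and in macrophages 7.32%, 2.85%, 5.71% and 6.46%. The hairpin 2 anti-PD1 library had the highest tumour-gate share under all 5 settings, 1.52 to 3.03 times the next. Depth limits the small gates most, where a sum rests on 24 to 413 cells.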
